A study of Mus musculus with 40 samples.

Results

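Pms2 and 5 other genes of DNA mismatch repair (Pms1, Mlh3, Msh3, Msh6 and Exo1) were read out in the liver of mouse fetuses whose mothers had eaten diets that differed in fat and folic acid. The 6 genes were taken by symbol from a table of 20593 genes, and all 6 were among the 15377 genes tested. Pms2 was picked because of its values in western diet males against control diet males and against western diet males with high folic acid, so all values of the 6 genes in those 2 comparisons are a description without a test. The other 5 were taken as its partners in the pathway. Of the other MutS and MutL homologues, Msh5 is given further on and the rest were not analysed here.

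The fetuses were C57BL/6 mice at embryonic day 18.5. Their dams ate 1 of 4 diets for 13 weeks before breeding and through pregnancy, and the western diet serves in this study as a model of gestational diabetes. The control diet (CD) drew 10% of its calories from fat and the western diet (WD) 45%. Each held either 2 mg/kg folic acid or 10 mg/kg, and the higher dose is marked with the letter F (CDF, WDF). With males and females kept apart this gave 8 groups of 5 libraries, 1 library per fetus. CD female replicate 4 and CDF female replicate 5 were left out because they looked like lung: Alb, the serum albumin gene of hepatocytes, stood at 7708 and 5278 normalized counts in them against 641907 to 1496610 in the other 38, and Sftpc, the lung surfactant gene, at 101239 and 67014. CD and CDF females therefore have n = 4 and the other groups n = 5. Which fetuses shared a mother is not labelled, and littermates may be among the replicates, so every p-value is against the variation among individual fetuses.

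Mismatch repair removes wrong bases and small loops that DNA polymerase leaves behind. MutS homologues find the mismatch, with Msh6 serving in the complex for base mismatches and small loops and Msh3 in the complex for larger loops. A MutL heterodimer is then called in, and its Pms2 or Mlh3 subunit carries the endonuclease that nicks the new strand. Pms1 forms a MutL dimer that lacks this activity, and Exo1 is the exonuclease that digests the strand past the mismatch. The pathway is busiest in dividing cells, of which the fetal liver holds many because it is a site of blood formation, and folic acid feeds the synthesis of the nucleotides on which replication depends.

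Pms2 (ENSMUSG00000079109.11) lies on the plus strand at chr5:143909964-143933968 of mm10. Its start faces that of Aimp2, which encodes a scaffold protein of the tRNA synthetase complex and runs the other way, with 116 bases between them in the GENCODE annotation. Pms1 (ENSMUSG00000026098.13, chr1:53189187-53297018, minus strand) faces Ormdl1, a regulator of sphingolipid synthesis, across 76 bases. Msh3 (ENSMUSG00000014850.15, chr13:92211872-92355003, minus strand), Msh6 (ENSMUSG00000005370.4, chr17:87975062-87990892), Exo1 (ENSMUSG00000039748.11, chr1:175880581-175913489) and Mlh3 (ENSMUSG00000021245.15, chr12:85234520-85270599, minus strand) complete the set.

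The stretches between the facing starts are shown because Pms2 and Aimp2, and Pms1 and Ormdl1, share them while their RNA levels are compared below. They were read from RefSeq promoter windows of GRCm38.p6 (mm10), 5′ to 3′ toward the mismatch repair gene, at chr5:143909848-143909963 on the plus strand and chr1:53297019-53297094 on the minus strand. Capitals mark CCAAT, the letters bound by NF-Y, and GGGCGG, a letter run of the Sp1 box, on either strand.
Pms2 and Aimp2: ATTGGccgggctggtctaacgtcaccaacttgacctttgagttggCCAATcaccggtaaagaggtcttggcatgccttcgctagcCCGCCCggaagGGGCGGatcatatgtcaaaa
Pms1 and Ormdl1: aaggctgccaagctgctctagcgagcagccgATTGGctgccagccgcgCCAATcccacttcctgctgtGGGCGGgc

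Windows of 300 bases, 250 before and 50 after a RefSeq start, were found for 5 of the 6 genes. The windows of Pms2 and Pms1 held CCAAT 3 and 2 times and GGGCGG 2 times and 1 time. Those of Msh6 held CCAAT 1 time and GGGCGG 5 times, and those of Msh3 held GGGCGG 4 times. Among all 32851 windows, 37.4% had a CCAAT and 35.7% a GGGCGG. For E2F, the factor family of S phase genes, 2 letter runs were searched as well: TTTCCCGC was found in 1.07% of all windows and TTTGGCGC in 0.514%, and 1.56% held either. Msh6 and Msh3 each had 1 match, TTTCCCGC and TTTGGCGC respectively, and Pms2, Pms1 and Mlh3 had neither run. The Msh6 match is shown with its flanks, at chr17:87975054-87975083 on the plus strand, as the most abundant gene of the set carries it.
Msh6: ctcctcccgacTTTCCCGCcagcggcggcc

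Levels were compared between genes as normalized counts per kb of exon sequence, joined over all annotated isoforms of a gene, over all 38 libraries. Msh6 stood at 114 ± 20.9 per kb (SD, n = 38). Pms2 and Exo1 followed at 20.9 ± 6.40 and 20.4 ± 4.83, then Msh3 at 14.6 ± 2.31, Mlh3 at 12.0 ± 2.80 and Pms1 at 8.44 ± 2.47 per kb. The Msh6 RNA was thus the most abundant of the set, and on this measure the 3 MutL genes ran in the order Pms2, Mlh3, Pms1. The length of the isoforms expressed was not measured, so the order of genes with close values is not settled. Normalized counts summed, in units of 1000000, to between 8.97 and 27.8 per library (median 17.0). Besides the 2 libraries left out, 6 of the 38 held more than 1000 counts of Sftpc, with a maximum of 30176 in CD female replicate 5 and 24797 in CDF female replicate 4, and the other 32 held at most 140.

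Pms2 RNA was higher in every WD male library than in every CD male library. The 5 CD males stood at 176, 167, 131, 117 and 131 normalized counts. The 5 WD males stood at 282, 192, 194, 351 and 199. Replicates 1 and 4 of the WD males were well above the other 3, and the lowest WD male was still above the highest CD male. The group means were 244 ± 70.6 and 145 ± 25.6 (SD, n = 5 each), a ratio of 1.69, and the log2 difference was 0.72 (SE 0.20). Without WD male replicate 4, the highest library of all 38, the log2 difference was 0.58. Across all genes tested, 0.826% were likewise higher in all WD males than in all CD males. This is the contrast Pms2 was picked on, so its place among them says nothing more.

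With 10 mg/kg folic acid in the western diet the male values lay at the other end. The 5 WDF males stood at 113, 87.6, 129, 156 and 145 normalized counts, all below the lowest WD male. Their mean of 126 ± 26.9 was 0.518 times that of the WD males, and the log2 difference was -0.93 (SE 0.20). Leaving out 1 library at a time kept the ratio between 0.487 and 0.581. In this comparison 1.18% of all genes were lower in all WDF than in all WD males, again in a contrast that the choice of Pms2 had used. The 2 comparisons share the 5 WD libraries and are therefore not independent of each other.

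**Figure D1:**
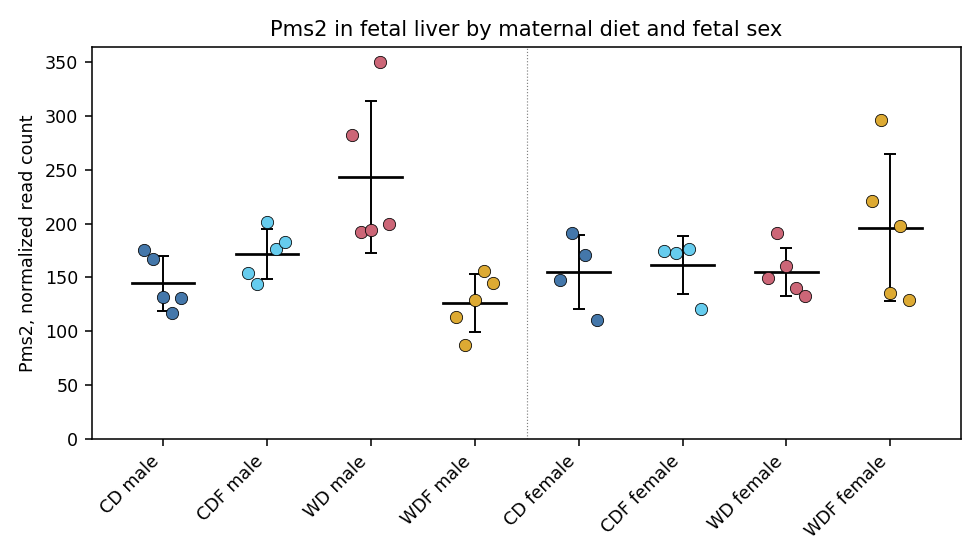
Pms2 normalized read counts (vertical axis, from 0) in each of the 38 libraries, by maternal diet and fetal sex (horizontal axis). Points are libraries, long bars the group means and error bars the SD. The WD males (192 to 351) lie above all CD males (117 to 176) and all WDF males (87.6 to 156), while the 4 female groups overlap.

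Folic acid in the control diet went with a smaller difference in Pms2 that did not pass. The 5 CDF males stood at 154, 144, 201, 176 and 183 counts (172 ± 23.0), overlapping the CD males. The log2 difference was 0.25 (95% confidence interval -0.16 to 0.67, limma adjusted p = 0.908). Against the CDF males the WDF males were lower by 0.46 on the log2 scale, with a log2 difference of -0.46 (-0.87 to -0.05), an unadjusted p of 0.0298 and an adjusted p of 0.699 by limma. The 2 groups overlapped between 144 and 156. Pms2 was the only 1 of the 6 genes under an unadjusted p of 0.05 in this comparison, where 6.9% of all genes were, and these comparisons share their CD and WDF libraries with the 2 that served to pick Pms2.

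The female libraries took no part in picking Pms2, and none of their comparisons passed. The CD females stood at 148, 191, 171 and 111 counts, the last being replicate 5, which had the most Sftpc of the 38 libraries. The WD females stood at 149, 191, 161, 141 and 133. Their ranges lay on top of each other, with means of 155 ± 34.4 (n = 4) and 155 ± 22.7 (n = 5). The log2 difference was 0.02 (-0.42 to 0.46, limma adjusted p = 0.979), and -0.13 without CD female replicate 5. An exact two-sided permutation test over all these libraries gave p = 0.905. With so few libraries this test cannot give very small p-values. Whether the effect of the western diet at 2 mg/kg folic acid differed between the sexes was not tested, because the male side is the contrast that chose the gene.

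The WDF females were more spread. Their 5 values were 221, 296, 136, 198 and 129 counts, with replicate 2 the highest female library, and 3 of the 5 lay above every WD female. The mean was 196 ± 68.3, the log2 difference to the WD females 0.28 (-0.13 to 0.69, limma adjusted p = 0.948; exact two-sided permutation p = 0.294), and 0.11 without replicate 2. The folic acid difference was therefore positive in western diet females and negative in western diet males, without a test of the contrast between them. The CDF females stood at 175, 172, 177 and 121 counts, the last being replicate 4, which is rich in lung RNA. Their mean of 161 ± 26.8 differed from the CD females by a log2 difference of 0.07 (adjusted p = 0.890 by limma) and from the WDF females by 0.23 (adjusted p = 0.628). Without WDF female replicate 2 that last value was 0.06 and without CDF female replicate 4 it was 0.10.

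In order of their Pms2 means the 8 groups ran from WD males through WDF females, CDF males, CDF females, WD females, CD females and CD males to WDF males. Every pair of neighbours in that order had overlapping ranges and means closer than the larger of their SDs. The highest mean was 1.93 times the lowest, and these 2 groups are those of a comparison that served to pick the gene. The median coefficient of variation within groups was 19.5% for Pms2. For the other 5 genes it was 15.1 to 22.9%, and their highest group mean was 1.26 (Msh6) to 1.42 (Exo1) times their lowest.

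At 10 mg/kg folic acid the difference between western and control diet was -0.46 for Pms2 in males and 0.23 in females. The test of the difference between these 2 effects gave 0.69 on the log2 scale (0.09 to 1.29), an unadjusted p of 0.0260 and an adjusted p of 0.382 by limma. Msh6 had 0.58 (0.06 to 1.11, unadjusted p = 0.0307, adjusted p = 0.382), and 0.36 without CDF female replicate 4. With Malat1 RNA, described further on, as a covariate, Msh6 had 0.21. The 5 WDF males in this contrast are among the libraries that served to pick Pms2, so its value here is not independent of that choice. These 2 of the 6 genes were under an unadjusted p of 0.05, where 12.5% of all genes were, and none passed the adjusted threshold. Over the 4 diets Pms2 differed by -0.01 between females and males (adjusted p = 0.999), and 0 of the 6 genes passed where 0.0585% of all genes did (0 of 6 and 3.1% under an unadjusted p of 0.05). The effect of folic acid in females did not differ detectably for Pms2 between western and control diet (0.21, -0.41 to 0.83, adjusted p = 0.701 by limma; 0 of 6 genes and 12.9% of all genes under an unadjusted p of 0.05), nor its effect in the control diet between the sexes (-0.19, -0.80 to 0.43, adjusted p = 0.744; 0 of 6 genes and 8.96% of all genes).

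Among the partners, the MutL gene Pms1 had the same direction as Pms2 in the 2 male comparisons, with smaller differences and overlapping groups. Its values were 63.9, 65.8, 65.2, 40.2 and 46.6 counts in CD males. They were 72.4, 60.8, 70.2, 76.3 and 98.4 in WD males, and 63.4, 43.8, 63.2, 64.7 and 45.7 in WDF males. Among the WD males, 4 of 5 were above every CD male and every WDF male, and replicate 2 was within their ranges. The log2 differences were 0.43 (SE 0.30) for WD against CD males and -0.42 (SE 0.30) for WDF against WD males, given as a description. CDF males stood at 48.5 to 60.9 counts except replicate 5 at 99.5.

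Pms1 varied most in CDF females, at 74.9, 34, 98.7 and 16.0 counts. The lowest, replicate 4, had the next highest Sftpc of the 38 libraries after CD female replicate 5. The WDF females stood at 92.6, 76.2, 53.8, 74.3 and 65.3, within the range of the CDF females. The log2 difference of 0.65 (95% interval from 0.00134 upward, unadjusted p = 0.0496, limma adjusted p = 0.532) was 0.17 without CDF female replicate 4.

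Mlh3, whose dimer is best known from meiotic recombination, had the opposite signs to Pms2 and Pms1 in males. It stood at 83.1, 81.8, 107, 114 and 76.3 counts in CD males and at 108, 95.6, 53.9, 62.4 and 69.3 in WD males. The WDF males lay close together at 87.6, 100, 83.3, 91.2 and 96.2. The WD males overlapped both other groups, and 3 of them were below every CD and every WDF male. The log2 differences were -0.27 (SE 0.21) and 0.28 (SE 0.21). In the 4 female comparisons Mlh3 ranged from -0.13 to 0.27 and did not pass.

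Msh6, the mismatch-binding MutS subunit, had the same signs as Pms1 in the 2 male comparisons. It stood at 536, 528, 548, 315 and 458 counts in CD males, where replicate 4 was the lowest. WD males stood at 485, 494, 581, 603 and 617, and WDF males at 526, 423, 394, 446 and 433. In the WDF males 4 of 5 were below every WD male. The log2 differences were 0.24 (SE 0.18) for WD against CD males, or 0.0993 without CD male replicate 4, and -0.32 (SE 0.18) for WDF against WD males, and -0.30 (-0.66 to 0.06, limma adjusted p = 0.724) for WDF against CDF males. In females the CDF libraries again spread widely, at 503, 366, 632 and 261 counts, and Msh6 differed from the CD females by -0.29 (-0.70 to 0.11, adjusted p = 0.518 by limma) and by -0.0661 without CDF female replicate 4, in a comparison where 0 of the 6 genes and 7.78% of all genes were under an unadjusted p of 0.05.

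Msh3, the MutS subunit for larger loops, was the steadiest of the set in males. The male libraries ranged from 133 to 193 counts, and group means from 160 ± 7.99 in CD to 168 ± 20.1 in WDF males. Its log2 differences in the 2 comparisons that chose Pms2 were 0.03 each (SE 0.15). Exo1, the exonuclease, had male means of 182 ± 47.2 (CD), 153 ± 29.0 (CDF), 172 ± 44.9 (WD) and 172 ± 41.9 (WDF), and log2 differences of -0.08 and 0.01 (SE 0.20). When libraries were weighted by their quality in limma, Exo1 had 0.25 and -0.23 in those comparisons and Msh3 0.16 and -0.11, so the direction of these small differences depended on the setting.

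**Figure D2:**
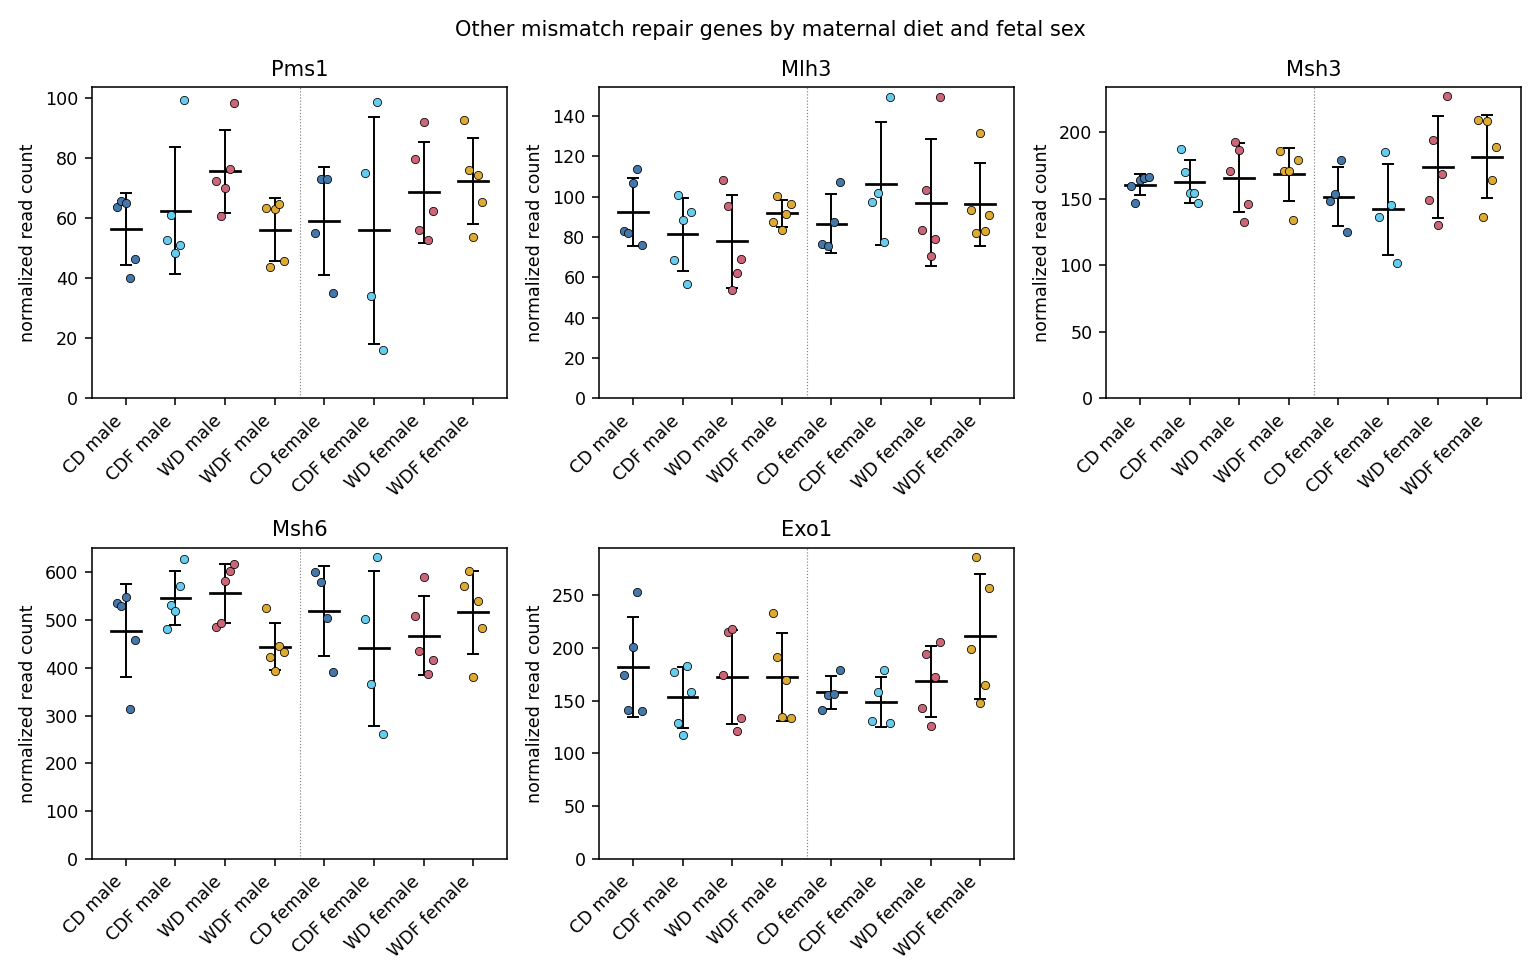
Normalized read counts (vertical axes, from 0) of Pms1, Mlh3, Msh3, Msh6 and Exo1 in each of the 38 libraries, by maternal diet and fetal sex. Points are libraries, long bars group means and error bars the SD. Ranges overlap between WD males and both CD and WDF males for all 5 genes, and CDF female replicate 4 is the lowest library for Pms1 (16.0), Msh3 (101) and Msh6 (261).

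The comparison of western with control diet at 10 mg/kg folic acid in females had 3 of the 6 genes, Pms1, Msh3 and Exo1, under an unadjusted p of 0.05, each of them higher in WDF females. Across all genes 8.14% were under that p, 4.23% in that direction. Msh3 stood at 209, 136, 208, 164 and 189 counts in WDF females and at 136, 185, 145 and 101 in CDF females. Exo1 stood at 199, 287, 148, 165 and 257 in WDF females and at 131, 158, 179 and 129 in CDF females. Both pairs of groups overlapped, with 3 of 5 WDF females above every CDF female for Msh3 and for Exo1. The log2 differences were 0.37 for Msh3 (0.03 to 0.70, unadjusted p = 0.0315) and 0.47 for Exo1 (0.03 to 0.90, unadjusted p = 0.0364), each with a limma adjusted p of 0.532. Msh6 had 0.29 (-0.10 to 0.67, adjusted p = 0.540). CDF female replicate 4 carries part of these values: without it Msh3 had 0.22, Exo1 0.40 and Msh6 0.06.

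No gene of the set passed an adjusted p of 0.05 in any of the tested comparisons. For all genes the counts at that threshold by limma were 0 in each of the 8 comparisons between 2 groups (0%), against 1023, 1354, 1061 and 536 genes at an unadjusted p under 0.05 for WD against CD, WDF against WD, WDF against CDF and CDF against CD males (6.65, 8.81, 6.9 and 3.49%) and 1011, 221, 1252 and 1196 genes in the same order in females (6.57, 1.44, 8.14 and 7.78%). With library weights in limma 145, 621 and 241 genes passed for WD against CD, WDF against WD and WDF against CDF males. Of the 6 genes, 0 were under that unadjusted p in the unweighted fit in WD against CD females, WDF against WD females and CDF against CD males. An adjusted p over the threshold does not show equal levels: the 95% intervals of Pms2 in females reached 0.46, 0.69, 0.67 and 0.53 on the log2 scale.

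**Figure D3:**
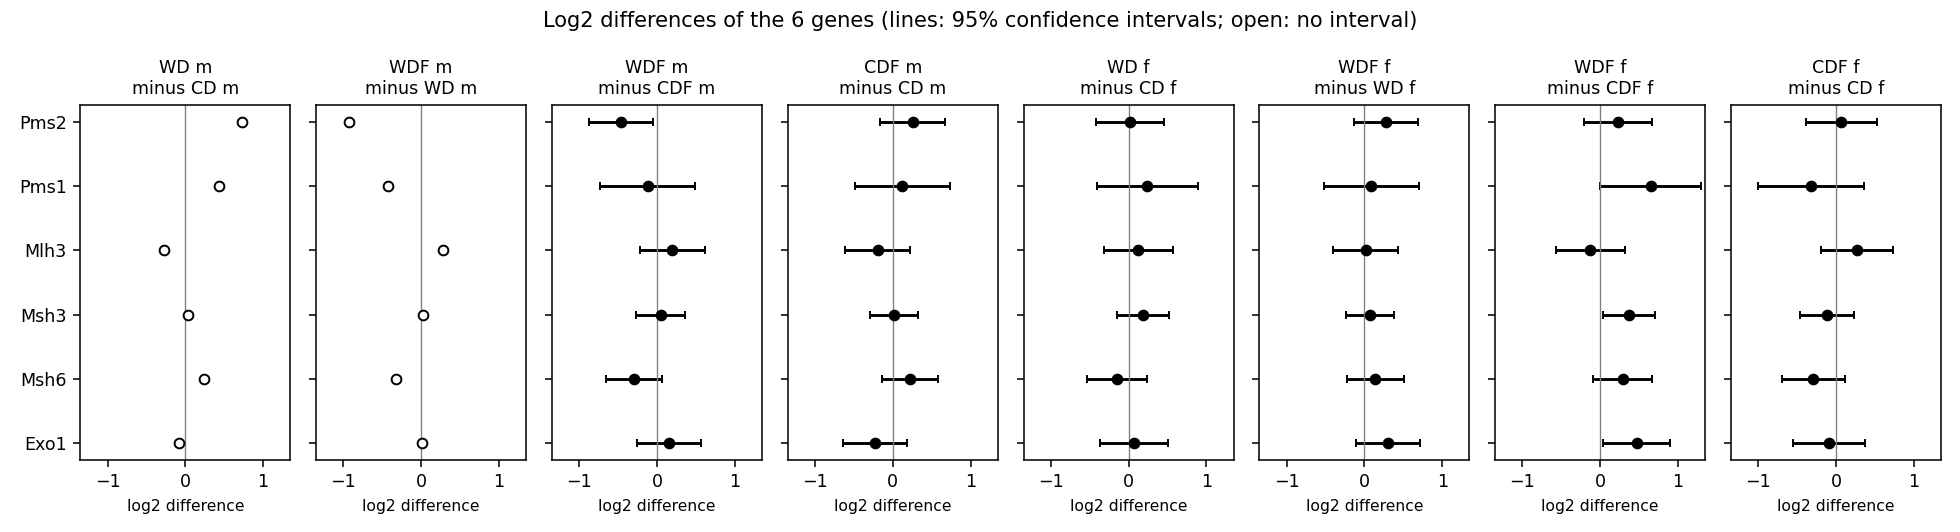
Log2 differences (horizontal axes) of the 6 genes in the 8 comparisons between 2 groups, with m for males and f for females. Filled points with lines are estimates with 95% confidence intervals from limma, and open points belong to the 2 comparisons that served to pick Pms2 and carry no interval. Pms2 stands at 0.72 and -0.93 in those, the values it was picked for, and in females its 4 intervals all include 0.

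Pms2 was also set against its partners within each library, a measure that reuses the male values it was picked on and is given without a test. The log2 of Pms2 minus the mean log2 of the other 5, from normalized counts with no correction for gene length, was 0.62 ± 0.47 in WD males (0.23 to 1.36) and -0.23 ± 0.38 in WDF males (-0.71 to 0.12). CD and CDF males stood at -0.04 ± 0.27 and 0.23 ± 0.25. The female groups lay between 0.01 ± 0.27 (WD) and 0.27 ± 0.13 (CDF). The WD and WDF males did not overlap on this measure, while the lowest WD male lay within the range of the CD males, whose highest was 0.23. The CDF females had the next highest mean after the WD males, in place of the WDF females.

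Across the 38 libraries Pms2, Pms1 and Msh6 varied together and the other 3 genes did not join them. Pms1 and Msh6 had the closest relation (Pearson r = 0.82, Spearman rho = 0.75 of log2 values), which was 0.86 after group means were removed and 0.75 without CDF female replicate 4. Pms2 went with Msh6 (r = 0.55, rho = 0.62) and with Pms1 (r = 0.49, rho = 0.57). Mlh3 ran against Msh6 (r = -0.66, rho = -0.63) and against Pms2 (r = -0.39, rho = -0.38). Msh3 and Exo1 were related weakly to each other (r = 0.39, rho = 0.45) and hardly to Pms2 (r = -0.10 and -0.07). These values describe libraries that share diet groups, sequencing and scaling.

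Malat1, a long RNA that stays in the nucleus and whose share depends on how RNA was extracted and kept, varied with the same genes. Its correlation was -0.72 with Msh6, -0.57 with Pms2 and with Pms1, and 0.48 with Mlh3. Malat1 stood at 12767 ± 4328 counts in WDF males against 5172 ± 1815 in WD males and 10110 ± 11032 in CD males, where 1 library reached 29464. All 4 nuclear RNAs listed (Malat1, Neat1, Meg3, Kcnq1ot1) were higher in WDF than in WD males, with a median log2 difference of 1.03 against 0.01 over all genes, and all 4 were lower in WD than in CD males (median -0.35 against -0.02). With Malat1 added to the fit as a covariate, Pms2 had 0.63 in WD against CD males, -0.67 in WDF against WD males, -0.22 in WDF against CDF males and 0.40 in the difference of fat effects between the sexes. In the same fit Pms1, Msh6 and Mlh3 had 0.06, 0.01 and 0.01 in WDF against WD males. This covariate was added after seeing the data. Malat1 itself differed between these diet groups, so the fit cannot separate it from diet, and its part was not tested.

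**Figure D4:**
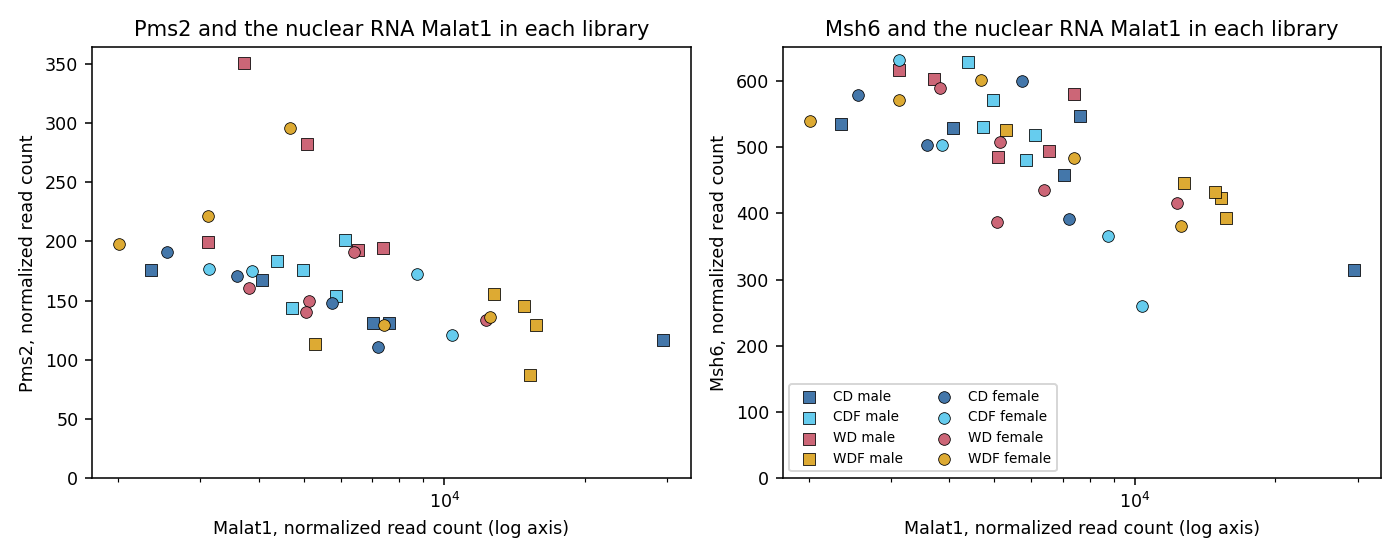
Pms2 (left) and Msh6 (right) against Malat1 in each of the 38 libraries, as normalized read counts with a log horizontal axis and vertical axes from 0. Squares are males, circles females and colours the 4 diets. Libraries with more Malat1 have less of both genes (r of log2 values -0.57 and -0.72), and 4 of the 5 WDF males lie among the libraries rich in Malat1 while the WD males do not.

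Markers of other tissues and cells were read beside Pms2 in the male groups, and none of those given here passed the test. The summed counts of 7 lung genes ranged from 29.3 to 5565 (median 72.3) in CD males, from 14.7 to 57.0 (median 24.7) in WD males and from 27.6 to 8332 (median 61.0) in WDF males. Of the 7 lung genes, 7 had lower means in WD compared with CD males and 7 higher means in WDF compared with WD males, with median log2 differences of -1.65 and 2.04, and 0 of them were under an unadjusted p of 0.05. The 6 megakaryocyte genes, markers of platelet precursors, summed to 2187 to 3549 in WD males and 3393 to 5652 in WDF males. All 6 had higher means in WDF males (median 0.58). Of them 4 were under an unadjusted limma p of 0.05, where 8.81% of all genes were. The 8 erythroid genes summed to 415258 to 1580210 in CD males and 315215 to 1152610 in WD males. Means were higher in WD males for 6 of 8 (median log2 difference 0.32), and 3 were under that p, where 6.65% of all genes were. Among the other lists, 5 of 5 bile duct genes were lower in WD than in CD males (median -1.32, 2 under that p). So were 4 of 5 skeletal muscle genes (median -1.29, 2 under that p), while 3 of 5 macrophage genes were higher (median 0.38, 2 under that p). In WDF against WD males 6 of 8 erythroid genes were lower (median -0.19, 1 under that p). There 4 of 5 bile duct genes were lower (median -0.15), and the higher 1 was under that p. Higher were 4 of 5 muscle genes (median 0.71) and 3 of 5 macrophage genes (median 0.34), whose 2 lower genes were under that p. Of 8 hepatocyte genes 6 were lower in WD than CD males (median -0.13, 0 under that p). In WDF against WD males 6 were higher (median 0.06, 2 under that p). Of the 14 alternative fits 1 held an erythroid covariate. Over all of them Pms2 ranged from 0.51 to 0.76 in WD against CD males and from -0.94 to -0.67 in WDF against WD males. Beyond that the part of these cells in the Pms2 values was not tested. In whole tissue fewer cells of a type cannot be told apart from less RNA per cell.

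The genes beside Pms2 were not picked for their values, whereas Pms2 was, so their male differences are given for themselves. Aimp2, across the shared stretch printed above, stood at 315 to 403 counts in CD males, 298 to 574 in WD males and 316 to 412 in WDF males. Its log2 differences were 0.15 and -0.15 (SE 0.18) in WD against CD and WDF against WD males. The other tested genes within 100 kb, Eif2ak1 (the heme-regulated kinase of translation) and Ccz1 (a factor of vesicle traffic), had 0.19 and 0.07 in WD against CD males and -0.18 and -0.12 in WDF against WD males. Over the 38 libraries Pms2 and Aimp2 had r = -0.19 (rho = -0.23). Pms1 and Ormdl1 had r = -0.33 and rho = 0.17, and r = 0.30 without CDF female replicate 4, in which Ormdl1 reached 755 counts.

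Overlapping annotation bears on how far the Pms2 counts are its own. Gm17135, Gm42421 and Rsph10b overlap the Pms2 gene in the annotation and reached at most 3.78, 7.94 and 18.1 counts in any of the 38 libraries, with r of 0.30, 0.06 and -0.09 to Pms2. Gm17135 lies on the other strand. The library kit keeps the strand, but whether counting used it is not given in the sources used here.

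**Figure D5:**
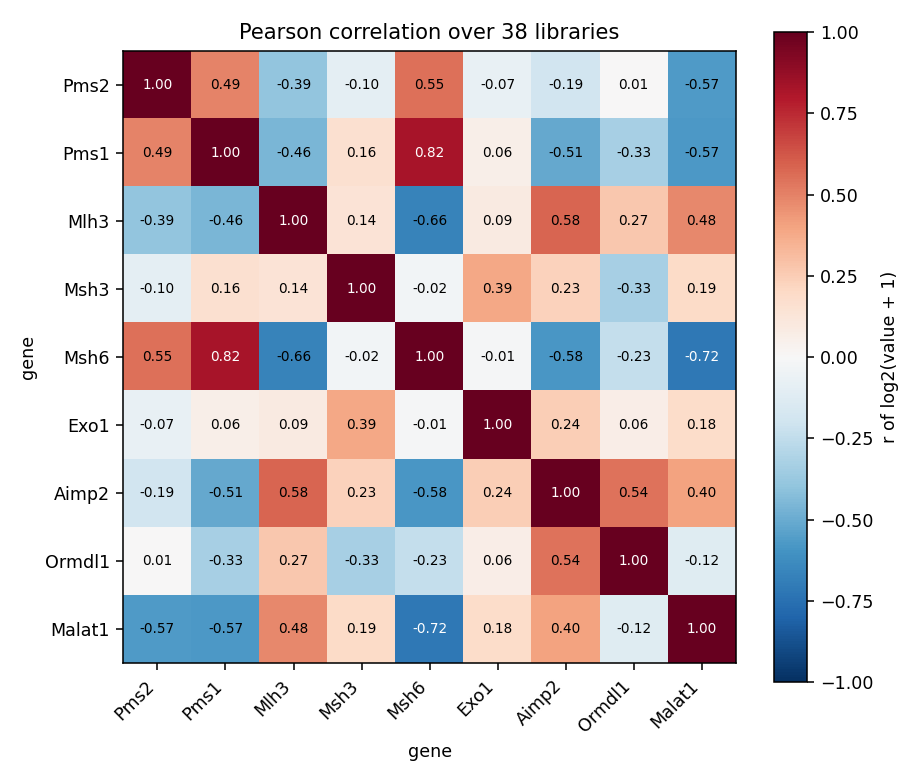
Pearson correlation of log2(normalized count + 1) over the 38 libraries between the 6 mismatch repair genes, the 2 genes that face Pms2 and Pms1 head to head (Aimp2, Ormdl1) and Malat1, on both axes. Colour and number give r. Pms1, Msh6 and Pms2 form a positive block (0.49 to 0.82) that is negative with Malat1, and Pms2 has -0.19 with Aimp2.

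The 5 genes whose pattern was most like that of Pms2 over the 38 libraries were Parpbp (r = 0.74, rho = 0.82), Kif18a (r = 0.73, rho = 0.75), Usp14 (r = 0.73, rho = 0.83), Rbbp8 (r = 0.73, rho = 0.67) and Ckap5 (r = 0.72, rho = 0.74). Parpbp encodes a partner of PARP1, Kif18a a kinesin of the mitotic spindle, Usp14 a deubiquitinase of the proteasome, Rbbp8 the end-resection factor CtIP and Ckap5 a microtubule polymerase. After group means were removed the r values were 0.56 to 0.70. Without the 2 libraries farthest from the Pms2 median, WD male replicate 4 and WDF male replicate 2, they were 0.62 to 0.72. These correlations include the male libraries that served to pick Pms2.

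Among genes that work beside mismatch repair, those of the replication helicase and S phase had the most one-sided values in males. The list was chosen with earlier results known. In CDF against CD males 12 of 15 of these genes were higher (median log2 difference 0.11). Of them 2 were under an unadjusted limma p of 0.05, where 3.49% of all genes were. In WDF against CDF males 11 of 15 were lower (median -0.06), 0 of them under that p, where 6.9% of all genes were. The 2 comparisons described next are those that Pms2 was picked on. Of 15 such genes, WD males had higher means than CD males for 14, and WDF males had lower means than WD males for 14, with median log2 differences of 0.34 and -0.29 against -0.02 and 0.01 over all genes. Under an unadjusted p of 0.05 were 7 and 6 of them in those directions, where 3.35% and 4.04% of all genes were, and 0 passed the adjusted threshold. Gins2, a subunit of the helicase, had 0.81 (SE 0.23, limma adjusted p = 0.627) and Prim1, the primase, 0.63 (SE 0.18, adjusted p = 0.627) in WD against CD males. Rrm2, the ribonucleotide reductase subunit that supplies deoxynucleotides, had 0.41 (SE 0.16, adjusted p = 0.673) there and -0.33 (SE 0.16, adjusted p = 0.562) in WDF against WD males.

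The clamp, clamp loader, polymerase and ligase genes that complete the repair were more even. Of 15, 9 were higher in WD than in CD males (median 0.06) and 6 were higher in WDF than in WD males (median -0.02). Pcna, the sliding clamp to which MutS and MutL bind, had 0.30 (SE 0.14) and -0.31 (SE 0.14), and Rpa1, which coats the single strand left by Exo1, 0.30 (SE 0.11) and -0.33 (SE 0.11), none past the threshold (limma adjusted p from 0.455 to 0.737). Of 19 genes of other DNA repair pathways 10 and 8 were higher (medians 0.08 and -0.11). Msh5, a meiotic MutS homologue, had -0.39 and 0.57 (SE 0.42).

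In WD against CD females all 15 genes that complete the repair and 14 of the 15 helicase and S phase genes were higher, with medians of 0.23 and 0.29 against -0.02 over all genes, and 0 passed. Pms2 had 0.02 in that comparison. Beside it stood 8 of 8 erythroid genes higher (median 0.41). Over the 14 alternative fits, 1 of them with an erythroid covariate, Pms2 ranged from -0.13 to 0.11 there. The erythroid part was not tested further. In WDF against WD females, where Pms2 had 0.28, 2 of 15 and 5 of 15 of these genes were higher (medians -0.13 and -0.04). The counts were 15 of 15 and 12 of 15 in CDF against CD females (medians 0.36 and 0.19), where Pms2 had 0.07. They were 3 of 15 and 7 of 15 in WDF against CDF females (medians -0.29 and -0.05), where Pms2 had 0.23.

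In the authors' deposited table of WDF against WD males, Pms2 had a log2 fold change of -0.81 (SE 0.24) with an adjusted p of 0.00821. Among the 13715 genes with an adjusted p there, 1.48% were under 0.05. Msh6 had -0.23 (adjusted p = 0.204), Pms1 -0.14 (0.356), Mlh3 0.06 (0.632), Msh3 0.01 (0.967) and Exo1 an adjusted p of 0.998 in the authors' deposited table, so that Pms2 alone of the 6 was called there. These libraries are those of a contrast that Pms2 was picked on. The adjusted p-values there are therefore a description and add no independent measurement. The authors' fold changes were smaller than the limma log2 differences of the same libraries, with Pms1 at -0.14 against -0.42 and Mlh3 at 0.06 against 0.28. In the authors' table of CDF against CD males Pms2 had 1.34e-05, against 0.25 by limma, so the 2 measures cannot be compared in size. In the authors' deposited tables of the other 3 folic acid comparisons, where 0.0216, 0.0437 and 0% of genes were called for CDF against CD females, CDF against CD males and WDF against WD females, 0 of the 6 genes were called and their adjusted p-values were all 0.846 or higher.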

How the data were processed

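Per the labels' protocols, 40 directional libraries of polyadenylated RNA gave read pairs of 43 nt. The submitters' processing notes name the tools: Trimmomatic 0.39, STAR 2.7.3a, Salmon 1.3.0 and DESeq2 1.24 with mm10; how each was used, and how reads were counted, is not given here. The table the authors deposited holds normalized counts, a signal scale: recomputed median-ratio factors were 1.01 in all 40 libraries, and the values are not whole, so no count model was run. The authors also deposited tables of log2 fold changes and p-values.

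Values were fitted as log2(value + 1) with limma 3.58.1 in R 4.3.3, 1 mean per group over 38 libraries, with a mean-variance trend and robust moderation, for genes of at least 10 in at least 5 libraries. A log2 difference on this scale understates changes of low genes. Adjusted p-values are Benjamini-Hochberg over 15377 genes, threshold 0.05. Single values in females were also compared by exact permutation. Coordinates came from GENCODE of the same build, and promoter windows from RefSeq GRCm38.p6. The script was tested on simulated data.

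The genes, lists and comparisons were chosen with earlier results of these data known. Named genes are the 6 members, the tested neighbours within 100 kb, the 5 genes with the highest r to Pms2, the head-to-head genes, and for each list 2 with the largest mean and 2 with the smallest p, of which some are printed. Alternatives were other scalings, pseudocounts of 0.5 and 5, filters, library weights, a replicate block, an erythroid covariate, fits of the compared groups alone, all 40 libraries, fewer libraries and leaving out each library; the Malat1 covariate was added after seeing the data. The name of 1 CDF female column has no sex letter, and it was matched to the only title left for that diet and number. No 2 libraries were copies of each other (highest correlation 0.982). Same-numbered libraries of a sex in different diet groups had a mean r of 0.00121 over 54 pairs (-0.54 to 0.46, 20 over 0.1). Other pairs of a sex had a mean of 0.00154, so the main fit paired no libraries by number. Whether a number links a male and a female of the same diet was not examined.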

Additional observations from a re-analysis of the deposited data

Results flagged for a closer look

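In 3 of the 48 combinations of gene and group, 1 library stood far from the others of its group, by a gap test that chance trips in about 1 of 20 groups. Pms2 stood at 121 normalized counts in CDF female replicate 4, where the other 3 libraries held 172 to 177. Pms1 stood at 99.5 in CDF male replicate 5, where the other 4 held 48.5 to 60.9. Mlh3 stood at 132 in WDF female replicate 3, where the other 4 held 82.0 to 93.6.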

How the results depend on the processing

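Pms2 kept its direction under all 14 alternatives in the male comparisons: 0.51 to 0.76 for WD against CD, -0.94 to -0.67 for WDF against WD and -0.48 to -0.22 for WDF against CDF males. The first 2 of these comparisons picked Pms2 on the same libraries, so their direction is no independent check. The direction of values near 0 turned. For WD against CD females Pms2 had -0.0554 with all 40 libraries (also in the permutation test with CD female replicate 4 kept), -0.13 without the 4 libraries with the most Sftpc and -0.0690 with library weights, and from -0.13 to 0.13 when 1 library was left out. For CDF against CD females it had -0.0217 with all 40 libraries and -0.0828 to 0.20 with 1 left out, and for females against males 0.00575, 0.0623, 0.00431 and 0.0351 with all 40, without the 4 libraries, with upper-quartile scaling and with library weights, and -0.0495 to 0.0295 with 1 left out. With the Malat1 covariate Msh6 had 0.0148 in WDF against CDF males and Pms1 and Msh6 0.0609 and 0.00947 in WDF against WD males. Genes called with library weights were 145, 621 and 241 for WD against CD, WDF against WD and WDF against CDF males, 1 and 1 for the first 2 with the erythroid covariate, and 1 for WD against CD females fitted alone. With 1 library left out, 0 to 1, 0 to 2 and 0 to 8 genes were called in those male comparisons and 0 to 1 in the others, apart from 7 to 10 between the sexes. The cause was not tested. With a replicate block Pms2 had 0.72, -0.93 and -0.46 in the male comparisons and 0.05, 0.28 and 0.33 for WD against CD, WDF against WD and WDF against CDF females, and 0 genes were called in each. Between the sexes 6 genes were called with the block against 9 without, none of the 6 mismatch repair genes in either. The block changed no call of the 6 genes. No count of reads was at hand, so precision rests on the spread between 4 or 5 libraries per group.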

Other observations

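In the 2 libraries left out for their lung-like RNA, Pms2 stood at 196 normalized counts (CD female replicate 4) and 150 (CDF female replicate 5), within the range of the other female libraries. Exo1 stood at 28.5 and 92.4, below the lowest of the 38 other libraries (118), and Mlh3 at 131 and 138. Msh3 stood at 162 and 153.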
